A study of Mus musculus with 15 samples.

Results

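The genes followed here belong to the absorptive cells at the surface of the colon and were chosen by name for their roles in fluid and ion transport and in the mature colonocyte: the guanylin peptides Guca2a and Guca2b, the carbonic anhydrases Car1 and Car4, the chloride and bicarbonate exchanger Slc26a3, the water channel Aqp8, the keratin Krt20 and the surface protein gene Lypd8. The choice was made with earlier results of these data known. The genes are 8 of 43622 annotated genes with a value in any library, and 7 of the 8 were among the 11430 genes tested. Guca2a was left out of the test because 1 of 15 libraries gave it no value of its own. In the colon, guanylin and uroguanylin bind the receptor guanylate cyclase C on the luminal face of epithelial cells and raise cyclic GMP, which promotes chloride and bicarbonate secretion and restrains sodium uptake. Carbonic anhydrases supply the bicarbonate and protons that apical exchangers trade for chloride and sodium, and water follows the absorbed salt. Krt20 and Lypd8 mark the differentiated upper crypt and surface, where LYPD8 keeps flagellated bacteria away from the epithelium.

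The tissue was the large intestine of male C57Bl/6 mice aged 4 weeks, with 3 RNA-seq libraries in each of 5 groups. Cymopol, a brominated compound that green algae of the genus Cymopolia make, was given at 1.4 mmol/kg (cymopol high dose, libraries 11, 12 and 14) and at 0.3 mmol/kg (cymopol low dose, libraries 33, 34 and 35). The other agent, a nonpolar extract of algae, was dosed at 1.0 g/kg (extract high dose, libraries 21, 23 and 25) and at 0.3 g/kg (extract low dose, libraries 26, 27 and 29). The vehicle group (libraries 2, 4 and 5) is labelled as vehicle control, and the vehicle named for all treatments was Chremophor EL with 10% DMSO. Dosing was by oral gavage once a day for 3 days, with tissue harvested 12 h later. Whether the vehicle group was gavaged on the same days is not stated separately. Doses in mmol/kg and g/kg are not matched. The labels do not say that the 3 libraries of a group are 3 mice, so the p-values measure the spread between these libraries, which may be technical. The labels also do not say which stretch of the large intestine was taken.

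Values are FPKM, a count of sequenced fragments scaled for transcript length and library size, as the authors deposited them. Protein-coding genes held an estimated 25202 to 551113 fragments per library. The share of all estimated fragments in annotated genes was 8.46%, 33.9% and 46.5% in vehicle libraries 2, 4 and 5. It was 56.3% to 65.3% in the high dose libraries, above every vehicle library. In the low dose libraries it ran from 33.2%, in extract low dose library 26, to 71.6%. The part of this share in the differences between high doses and vehicle was not tested. The mean log2(FPKM + 1) of 8 epithelial genes, Epcam and Cldn7 among them, was 1.21 in extract low dose library 26, 2.10 in vehicle library 2 and 3.46 in cymopol low dose library 33, and it lay between 4.70 and 6.20 in the other 12. Vehicle library 2 and extract low dose library 26 were low in smooth muscle genes as well. Their 8 smooth muscle genes summed to 70.6 and 36.3 FPKM, against 333 FPKM or more in the other libraries. Their size factors, from median-of-ratios scaling over genes above 0 in all libraries, were 0.149 and 0.0652, against 0.535 or more. In bulk tissue, fewer cells of a type and less RNA per cell cannot be told apart. The homeobox gene Hoxb13, which marks the hindmost gut, was at 41.2 FPKM in cymopol high dose library 12, 23.8 FPKM in cymopol low dose library 34 and 49.98 FPKM in extract high dose library 23, against at most 3.95 FPKM in the other 12. In cymopol high dose library 14, Fabp6, the ileal bile acid binding protein, was at 413 FPKM, against at most 0.973 FPKM elsewhere. Both genes were singled out after their values were seen.

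Guca2a, which encodes guanylin, was abundant, while its neighbour Guca2b, which encodes uroguanylin, was low in most libraries and listed at 0 in all 3 vehicle libraries. Both genes lie on chromosome 4 of GRCm38, Guca2a on the plus strand at chr4:119637704-119639471 and Guca2b on the minus strand at chr4:119656607-119658954, with 17135 bases between them. Their promoters are shown because the 2 genes are neighbours whose levels differ widely. The sequences are RefSeq's on GRCm38.p6, the 250 bases before the RefSeq transcript start, and capitals mark the motifs searched on both strands.
Guca2a, chr4:119637482-119637731, plus strand: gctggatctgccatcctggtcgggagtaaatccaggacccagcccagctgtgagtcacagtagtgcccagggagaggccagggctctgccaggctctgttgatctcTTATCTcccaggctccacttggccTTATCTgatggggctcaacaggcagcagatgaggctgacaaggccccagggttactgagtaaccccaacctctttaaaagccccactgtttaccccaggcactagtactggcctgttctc
Guca2b, chr4:119658946-119659195, minus strand: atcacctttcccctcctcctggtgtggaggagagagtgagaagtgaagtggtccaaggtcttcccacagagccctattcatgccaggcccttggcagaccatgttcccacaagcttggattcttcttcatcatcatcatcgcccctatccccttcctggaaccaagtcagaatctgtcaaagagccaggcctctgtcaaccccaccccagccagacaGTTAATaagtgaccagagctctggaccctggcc
The motifs searched in the 300 bases from 250 before to 50 after the start were the hepatocyte nuclear factor 1 motif GTTAAT, the GATA motif AGATAA, the CDX motif TTTATG, the nuclear receptor motif AGGTCA and the TATA box TATAAA. The Guca2a window held the GATA motif at 2 places, both on the minus strand, 144 and 120 bases before the start. Guca2b held GTTAAT once, 33 bases before its start. Of 32851 RefSeq promoters of this length, 11.2% held AGATAA or its reverse complement, and 7.10% held GTTAAT or its reverse complement. A match describes letters in the window and says nothing of binding.

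Guca2a stood at 237 and 118 FPKM in cymopol high dose libraries 11 and 12. In the cymopol low dose it stood at 35.4, 108 and 277 FPKM. The extract high dose libraries 21, 23 and 25 held 228, 116 and 190.2 FPKM, and the extract low dose libraries 26, 27 and 29 held 6.02, 168 and 76.9 FPKM. The vehicle libraries 2, 4 and 5 held 4.41, 96.5 and 157 FPKM. The lowest values were in vehicle library 2 and extract low dose library 26, the libraries lowest in epithelial genes and in size factor. Every treated group overlapped the vehicle group. In cymopol high dose library 14 the gene had no row of its own, and an assembled locus of 3800 bases that covers all 594 of its exonic bases stood at 179 FPKM. Left in the fit with that value missing, Guca2a differed by 1.96 on the log2 scale between both high doses and vehicle (limma, adjusted p = 0.409), and with the locus counted as the gene by 1.98 (limma, adjusted p = 0.380). Between both high doses and both low doses the difference was 1.32, with an exact two-sided permutation p of 0.162 over all splits of 5 against 6 libraries.

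Guca2b stood at 7.30, 4.41 and 116 FPKM in the cymopol high dose libraries 11, 12 and 14. Extract high dose libraries had 3.34, 3.50 and 11.7 FPKM. In the cymopol low dose it stood at 0, 5.19 and 10.2 FPKM, in the extract low dose at 0, 6.04 and 0, and it was listed at 0 in vehicle libraries 2, 4 and 5. All 6 high dose libraries therefore lay above all 3 vehicle libraries, and both low dose groups overlapped vehicle. Depth also differed with dose. Coding genes held an estimated 173936 to 551113 fragments in the high dose libraries and 28414 to 182990 in the low dose libraries. Vehicle libraries 2, 4 and 5 held 51266, 226491 and 25202. The part of depth in the values of 0 was not tested. Apart from cymopol high dose library 14, with an estimated 159 fragments, the values above 0 rested on an estimated 1.11 to 25.5 fragments. No ratio of FPKM is given against vehicle, since a 0 without counts may be a failed estimate. The size of the log2 differences from vehicle given next depends on the pseudocount.

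On the log2(FPKM + 1) scale Guca2b was higher by 4.12 ± 1.16 (SE) in the cymopol high dose than in vehicle (limma, adjusted p = 0.186), by 2.65 ± 1.16 in the extract high dose than in vehicle (limma, adjusted p = 0.390), and by 3.38 ± 1.00 in both high doses together (limma, adjusted p = 0.148). None of these passed the threshold of 0.05 after adjustment over all genes. The difference of both high doses from vehicle was 2.70 without cymopol high dose library 14 (limma, adjusted p = 0.219) and 6.51 with a pseudocount of 0.1 (limma, adjusted p = 0.0347), the only alternative that called it; over all alternatives its adjusted p ranged from 0.0347 to 0.569. Between both high doses and both low doses the difference was 1.90 ± 0.82 (limma, adjusted p = 0.343), with an exact two-sided permutation p of 0.0931 over all splits of 6 against 6 libraries. Among the libraries where both peptides had a value above 0, Guca2b amounted to 1.47% to 6.14% of Guca2a in FPKM. Cymopol high dose library 14, with the highest Guca2b, is not among them because it had no Guca2a value. The longer locus that covers the Guca2a exons stood at 179 FPKM there. Library 14 of the cymopol high dose had 116 FPKM of Guca2b beside 413 FPKM of Fabp6, 549 FPKM of the apolipoprotein Apoa1 and 457 FPKM of the brush border peptidase Anpep. Outside that library the highest Apoa1 was 9.32 FPKM and the highest Anpep 17.2 FPKM. All 4 of these genes are known for high levels in the small intestine, and the part of such cells in the Guca2b value was not tested. Apoa1 and Anpep, like Fabp6, were set beside Guca2b after their values were seen.

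**Figure D1:**
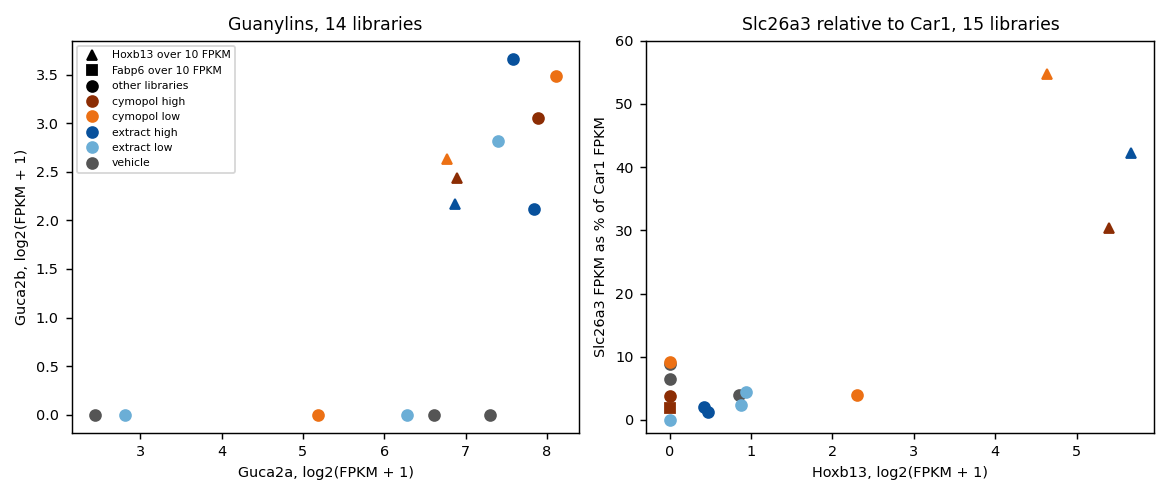
Left, Guca2b against Guca2a in the 14 libraries with a Guca2a value, on the log2(FPKM + 1) scale; right, the Slc26a3 FPKM as a percentage of the Car1 FPKM against Hoxb13, log2(FPKM + 1), in 15 libraries. Colours give the group and triangles the 3 libraries with Hoxb13 over 10 FPKM, which alone stand above 30% on the right.

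The carbonic anhydrases showed no difference between groups beyond the spread of the libraries. Car1, a cytosolic enzyme typical of colon epithelium, was the most abundant of the 8 genes in most libraries and ranked between 1 and 70 among coding genes by FPKM in every library, with a median rank of 5. It lies on chromosome 3 at chr3:14766216-14808368 on the minus strand, a span in which GENCODE M21 also annotates the pseudogene Gm16399. Car1 stood at 1006, 313 and 826 FPKM in the cymopol high dose and at 212, 269 and 1474 FPKM in the cymopol low dose. It was 1177, 348 and 700.0 FPKM in extract high dose libraries, 41.3, 671 and 886 FPKM in the extract low dose and 40.5, 421 and 1889 FPKM in vehicle. In FPKM the vehicle libraries thus held both the lowest and the highest Car1 of the series, and spanned all treated libraries. After median-of-ratios scaling the lowest Car1 was in cymopol high dose library 12, at 130, beside 272, 212 and 1362 in vehicle libraries 2, 4 and 5. Its mean was 715 ± 360 FPKM in the cymopol high dose, 742 ± 416 FPKM in the extract high dose and 783 ± 976 FPKM in vehicle (SD, n = 3 each). Both high doses differed from vehicle by 1.02 ± 1.17 (limma, 95% interval -1.36 to 3.40, adjusted p = 0.650), a difference that turned to -0.15 after median-of-ratios scaling and to -0.46 without vehicle library 2.

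Car4, the membrane-anchored enzyme of the luminal face, lies on chromosome 11 at chr11:84957786-84966044 on the plus strand. It stood at 45.8, 116 and 47.1 FPKM in the cymopol high dose and at 8.68, 106 and 57.5 FPKM in the cymopol low dose. Extract high dose libraries had 12.0, 173 and 32.3 FPKM, those of the extract low dose 2.48, 56.8 and 185 FPKM, and those of vehicle 56.3, 14.8 and 59.0 FPKM. Every treated group overlapped vehicle. The Car4 values of vehicle libraries 2, 4 and 5 rested on an estimated 31.3, 11.9 and 5.66 fragments. That of extract high dose library 21 rested on 12.0, against 669 in extract high dose library 23. Car4 averaged 69.7 ± 40.3 FPKM in the cymopol high dose and 43.4 ± 24.8 FPKM in vehicle (SD, n = 3 each). Both high doses differed from vehicle by 0.46 ± 1.22 (limma, 95% interval -2.02 to 2.94, adjusted p = 0.857), a difference that turned to -0.73 after median-of-ratios scaling and to -0.27 without the 3 libraries that held Hoxb13. It was -0.17 without vehicle library 4 and -0.05 without extract high dose library 23. The 2 enzymes did not rank the libraries alike: Car4 was 139% of Car1 in vehicle library 2 and 1.02% of it in extract high dose library 21.

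The apical exchanger Slc26a3 and the water channel Aqp8 varied over a wide range among libraries of the same group. Slc26a3 lies on chromosome 12 at chr12:31390871-31473917 on the plus strand, a span that also holds the annotated gene Gm9359, and Aqp8 on chromosome 7 at chr7:123462291-123468004 on the plus strand. Their promoters are shown because in each of the 5 groups both genes were highest in the same library: cymopol high dose 12, cymopol low dose 34, extract high dose 23, extract low dose 27 and vehicle 5.
Slc26a3, chr12:31437969-31438218, plus strand: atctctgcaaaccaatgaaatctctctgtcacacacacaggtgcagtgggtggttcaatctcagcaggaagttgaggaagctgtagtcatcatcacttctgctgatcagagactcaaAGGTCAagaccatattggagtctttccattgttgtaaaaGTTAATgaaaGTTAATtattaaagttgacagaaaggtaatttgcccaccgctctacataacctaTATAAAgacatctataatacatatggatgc
Aqp8, chr7:123462044-123462293, plus strand: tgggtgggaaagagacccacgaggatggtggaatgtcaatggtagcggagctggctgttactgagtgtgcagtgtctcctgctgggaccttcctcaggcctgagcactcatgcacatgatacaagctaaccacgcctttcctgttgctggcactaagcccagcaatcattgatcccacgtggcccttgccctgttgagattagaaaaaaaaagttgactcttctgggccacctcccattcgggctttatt
The RefSeq start of Slc26a3 lies inside the GENCODE span of the gene. In Slc26a3, GTTAAT stood at 94 and 84 bases before the RefSeq start, AGGTCA at 133 bases before it and TATAAA at 30 bases before it, and no 2 of these matches overlapped. The Aqp8 window held none of the 5 motifs. Of all promoters, 16.3% held AGGTCA, 13.6% held TATAAA and 11.9% held TTTATG, each on either strand. Of the 7 members with a promoter in the table, Slc26a3 and Guca2b held GTTAAT in their first entry, and Slc26a3, Krt20 and Car4 held TATAAA, in Car4 42 bases after the start.

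Slc26a3 stood at 38.8, 94.8 and 15.1 FPKM in the cymopol high dose and at 19.3, 147 and 58.1 FPKM in the cymopol low dose. The extract high dose had 14.97, 147 and 14.1 FPKM, the extract low dose 0, 29.9 and 21.1 FPKM, and vehicle 1.57, 27.3 and 166 FPKM. The highest value of the series was a vehicle library, number 5, and the only library listed at 0 was extract low dose 26. Both high doses differed from vehicle by 0.65 ± 1.28 (limma, 95% interval -1.96 to 3.25, adjusted p = 0.802), a sign that did not hold after median-of-ratios scaling (-0.33) or without vehicle library 2 (-0.93). The cymopol low dose exceeded the extract low dose by 2.68 ± 1.48 (limma, adjusted p = 1.00), and these doses are in different units.

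Aqp8 stood at 45.9, 128 and 26.2 FPKM in the cymopol high dose and at 13.4, 117 and 62.8 FPKM in the cymopol low dose. With the extract at its high dose it stood at 19.8, 169.6 and 6.84 FPKM, in the extract low dose at 0, 28.5 and 0, and in vehicle at 5.63, 0 and 56.0 FPKM. All 3 groups other than the extract low dose and vehicle had Aqp8 above 0 in every library, and each of them overlapped vehicle library 5. The 0 of vehicle library 4 is uncertain, since an assembled locus of 30050 bases that covers 984 of the 1581 exonic bases of Aqp8 stood at 227 FPKM there and could not be given to the gene. Aqp8 exceeded vehicle by 2.92 ± 1.48 in the cymopol high dose (limma, adjusted p = 0.390) and by 2.07 ± 1.48 in the extract high dose (limma, adjusted p = 0.586). The extract high dose exceeded the extract low dose by 3.29 ± 1.48 (limma, adjusted p = 0.638), and the cymopol low dose exceeded the extract low dose by 3.95 ± 1.48 (limma, adjusted p = 1.00). The size of these differences depends on the pseudocount, since vehicle library 4 and extract low dose libraries 26 and 29 were listed at 0. The difference of both high doses from vehicle, 2.49 ± 1.28 (limma, adjusted p = 0.309), was 1.07 without vehicle library 4 and 1.56 without the 3 libraries that held Hoxb13.

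In FPKM, Krt20 and Lypd8, the genes of the differentiated surface cell, were lowest in the 2 libraries poorest in epithelial genes. These libraries also had the lowest size factors, and otherwise the 2 genes overlapped among all 5 groups. After median-of-ratios scaling Krt20 was lowest in vehicle library 4, at 6.23, beside 22.4 in vehicle library 2 and 31.6 in extract low dose library 26. Lypd8 was still lowest in extract low dose library 26, at 133. Krt20, an intermediate filament keratin of mature gut epithelium, lies on chromosome 11 at chr11:99428403-99438150 on the minus strand. It stood at 74.2, 41.7 and 154 FPKM in the cymopol high dose and at 16.5, 69.4 and 201 FPKM in the cymopol low dose. Libraries of the extract high dose held 74.4, 45.6 and 40.0 FPKM, those of the extract low dose 2.06, 42.8 and 70.7 FPKM, and those of vehicle 3.34, 12.4 and 88.9 FPKM. Vehicle library 5 exceeded all but 2 treated libraries, while vehicle libraries 2 and 4 lay under all high dose libraries. Krt20 averaged 90.0 ± 57.9 FPKM in the cymopol high dose, 53.3 ± 18.5 FPKM in the extract high dose and 34.9 ± 47.0 FPKM in vehicle (SD, n = 3 each). Both high doses differed from vehicle by 1.89 ± 1.19 (limma, 95% interval -0.53 to 4.32, adjusted p = 0.395).

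Lypd8 lies on chromosome 11 at chr11:58379043-58390728 on the plus strand and was the second most abundant of the 8 genes, with a median rank of 8 among coding genes. It stood at 374, 979 and 442 FPKM in the cymopol high dose and at 163, 984 and 667 FPKM in the cymopol low dose. Extract libraries held 384, 1011 and 385 FPKM at the high dose and 8.67, 339 and 426 FPKM at the low dose, against 30.7, 354 and 451 FPKM in vehicle. Library 12 of the cymopol high dose, 34 of the cymopol low dose and 23 of the extract high dose stood close together at the top, while the other libraries of the high doses lay among the vehicle libraries. Lypd8 averaged 598 ± 331 FPKM in the cymopol high dose, 593 ± 361 FPKM in the extract high dose and 279 ± 220.1 FPKM in vehicle (SD, n = 3 each). Both high doses differed from vehicle by 1.65 ± 1.18 (limma, 95% interval -0.75 to 4.05, adjusted p = 0.458). Ordered by the median FPKM over all libraries with a value, the levels ran from Car1 (671) over Lypd8 (385), Guca2a (117), Car4 (56.3), Krt20 (45.6), Slc26a3 (27.3) and Aqp8 (26.2) to Guca2b (3.50). The ranges over libraries of all neighbours in this order overlapped.

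**Figure D2:**
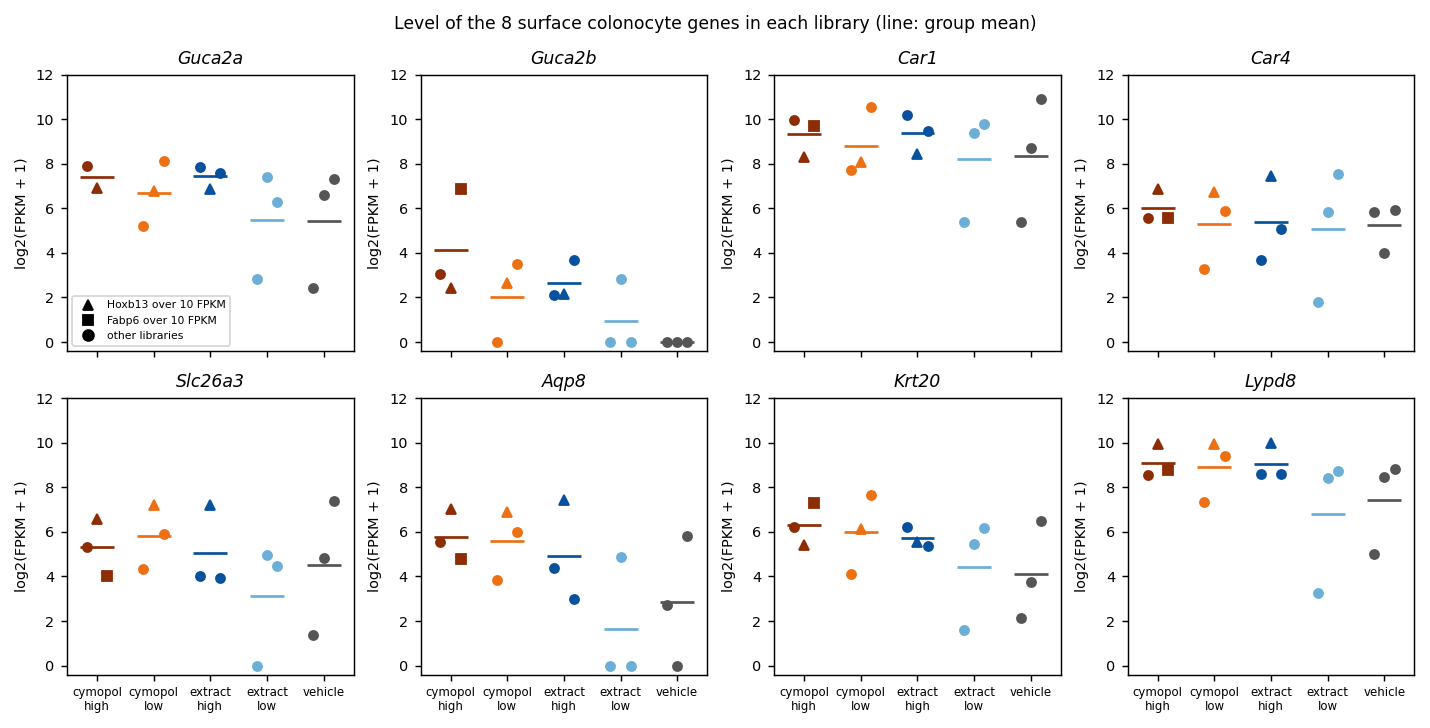
Level of each of the 8 genes, log2(FPKM + 1), in each library by group, with the group mean as a line. Guca2b is at 0 in all 3 vehicle libraries and above 0 in all 6 high dose libraries; triangles mark the 3 libraries with Hoxb13 over 10 FPKM and the square the library with Fabp6 over 10 FPKM, which has no Guca2a value.

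Across the 11 comparisons of the design, limma called 0 of the 7 tested members at an adjusted p under 0.05. Against that, the share of all 11430 genes called was 0.0175% for the cymopol high dose against vehicle, 0.00875% for the extract high dose against vehicle and 0% for each low dose against vehicle. It was 0.00875% for the high against the low dose of either agent, 0.0175% for the cymopol high dose against the extract high dose and 0% for the low doses against each other. It was 0.00875% for both high doses against vehicle, 0% for both high doses against both low doses and 0% for the difference between the 2 dose differences. A member count of 0 is therefore near what held for all genes. At an unadjusted p under 0.05 limma gave 1 member, Guca2b, in each comparison of a high dose or of both high doses with vehicle and of both high doses with both low doses. Of all tested genes, 13.2% passed this cut for the cymopol high dose against vehicle, 11.5% for the extract high dose against vehicle, 17.1% for both high doses against vehicle and 13.6% for both high doses against both low doses, so that 1 of 7 members is near the share of all genes. It gave 1 member, Aqp8, for the extract high dose against the extract low dose and for the cymopol low dose against the extract low dose, where 7.29% and 3.39% of all tested genes passed, and 0 members in the other 5 comparisons. In these, 5.7% of all tested genes passed for the cymopol low dose against vehicle, 3.92% for the extract low dose against vehicle and 5.9% for the high against the low dose of cymopol. Of all genes, 1.74% passed between the 2 high doses and 1.73% for the difference between the 2 dose differences.

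Most members and most tested genes lay on the same side of 0. Between both high doses and vehicle the 7 tested members had log2 differences above 0, with a median of 1.65, where the median of all tested genes was 0.77 and 79.8% of them lay above 0. Between both high doses and both low doses the median of the 7 members was 0.86 and that of all tested genes 0.75. Median-of-ratios scaling moved the medians of all genes to 0.27 in both comparisons. The members' medians then were 0.48 against vehicle and 0.04 against both low doses. As a share of estimated coding fragments, the members summed went the other way between doses. They held 0.995% to 1.77% in the high dose libraries and 1.96% to 2.32% in the low dose libraries, without overlap. Vehicle libraries held 0.638% to 4.05%, a range that spans both. The sum lacks Guca2a in the cymopol high dose library without a value for it. Fragments were estimated from interval widths and are too low for loci with several transcripts. How many other genes or gene sets lack overlap on this scale is not given. On these estimates the direction of the members between high and low doses depended on the scale. In the 10 comparisons of groups of libraries, Guca2b was the only member whose libraries did not overlap: it was higher without overlap in the cymopol high dose against vehicle, where 19.5% of tested genes were, in the extract high dose against vehicle, where 19.3% were, and in both high doses against vehicle, where 13.3% were. The other 7 comparisons had 0 members without overlap. Of all tested genes, the share without overlap in either direction was 19.9% for the cymopol high dose, 19.8% for the extract high dose, 4.72% for cymopol at its low dose, 2.66% for the extract at its low dose and 13.4% for both high doses, each against vehicle. The higher ones made up 3.88% in the cymopol low dose and 1.22% in the extract low dose. Between high and low dose the share was 10.6% for cymopol, 9.79% of genes being higher, and 21% for the extract. It was 6.93% between the 2 high doses, 4.51% of genes being higher with cymopol, 4.8% between the 2 low doses, 4.58% being higher with cymopol, and 1.31% between both high and both low doses. The comparisons with vehicle share the same 3 vehicle libraries.

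**Figure D3:**
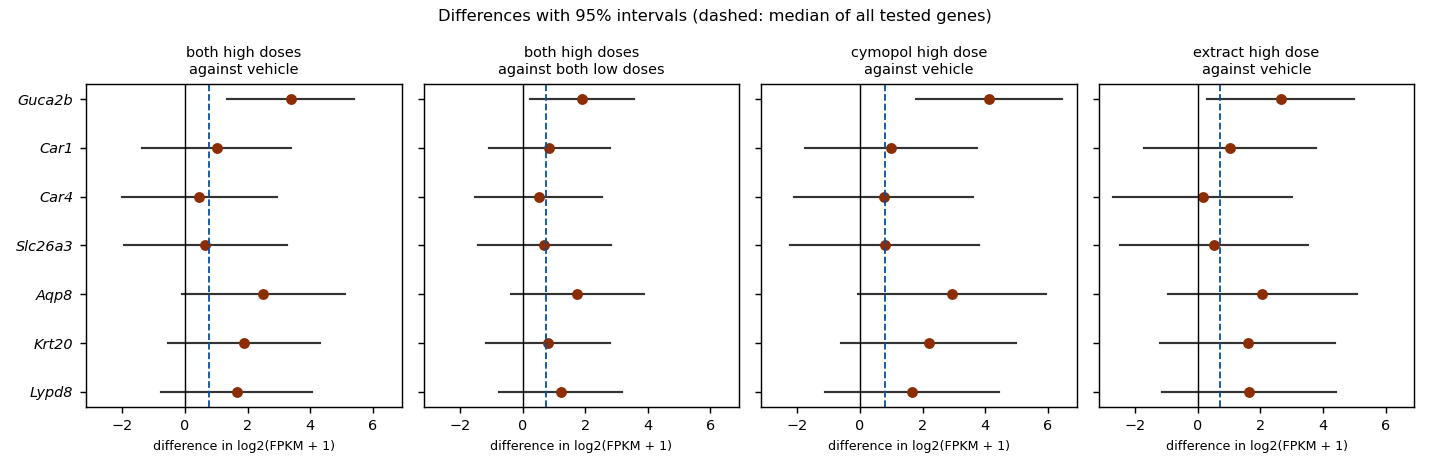
Difference in log2(FPKM + 1) of the 7 tested members in 4 comparisons, with 95% intervals from limma; the dashed line is the median of all 11430 tested genes. Only the Guca2b interval lies wholly above 0, in all 4 panels, and no member passed the adjusted threshold.

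Dose and agent gave no called member either. The cymopol high dose differed from the cymopol low dose by a median of 0.33 over the 7 members, where all tested genes had 0.60, and the extract high dose from the extract low dose by a median of 1.71, where all tested genes had 0.89. The extract low dose held library 26, without which the second median was 0.33. No member passed the test of whether the dose differences of the 2 agents differ (limma, interaction, adjusted p = 1.00 for each of the 7). The 95% interval of that term was -6.67 to 1.84 for Slc26a3 and -7.34 to 1.16 for Aqp8. The cymopol high dose and the extract high dose, which are in different units, differed by -0.05 for Car1 and 0.04 for Lypd8, with intervals of -2.79 to 2.70 and -2.74 to 2.81.

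The 8 genes did not move as 1 block. Over 15 libraries, on the log2(FPKM + 1) scale, Car1 followed Guca2a (Pearson r 0.92, Spearman rho 0.80, 14 libraries) and Krt20 (r 0.89, rho 0.84), while Slc26a3 followed Lypd8 (r 0.91, rho 0.74) and Aqp8 (r 0.72, rho 0.80). The points share library and depth, and the 2 libraries poorest in epithelial genes lie at the low end of most genes. Without vehicle library 2 and extract low dose library 26, Car1 kept r of 0.71 with Guca2a (12 libraries) and 0.67 with Krt20 (13 libraries), but had -0.12 with Slc26a3, -0.07 with Aqp8, 0.02 with Car4 and -0.09 with Lypd8. Slc26a3 then had r of 0.72 with Lypd8, 0.67 with Aqp8 and 0.59 with Car4, and Car4 had 0.76 with Lypd8. Guca2b then had r of 0.70 with Guca2a (12 libraries) and 0.57 with Krt20. Taken relative to the mean of the 8 epithelial genes, without the same 2 libraries, several coefficients were lower. Car1 then had r of 0.66 with Guca2a and 0.50 with Krt20, and Guca2a had 0.28 with Krt20. Slc26a3 had 0.73 with Lypd8, 0.53 with Aqp8 and 0.45 with Car4. These coefficients are descriptions over libraries of all groups.

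**Figure D4:**
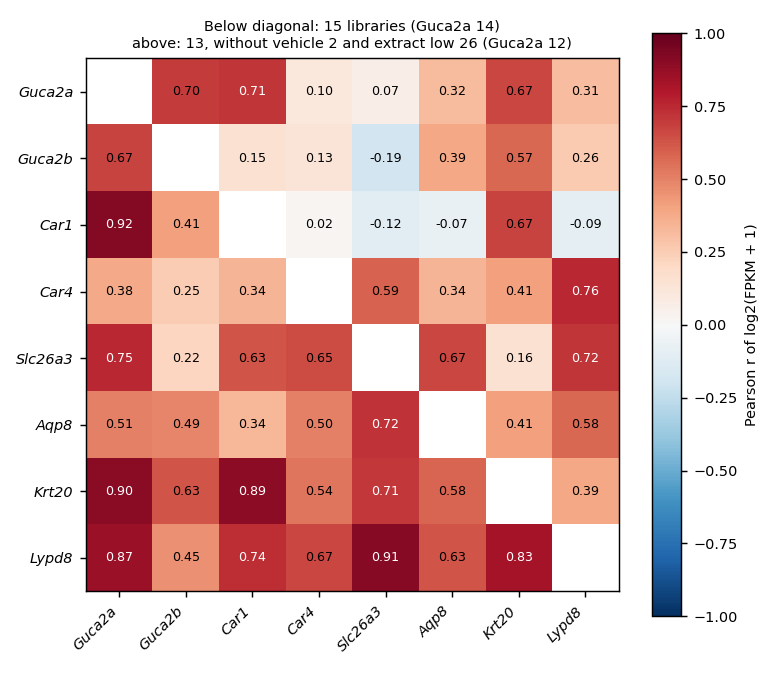
Pearson r between the members on the log2(FPKM + 1) scale, below the diagonal over 15 libraries and above it without vehicle library 2 and extract low dose library 26. Above the diagonal Guca2a, Car1 and Krt20 have r of at least 0.67 with each other, and Slc26a3 has r of at least 0.59 with Car4, Aqp8 and Lypd8.

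The 3 libraries that held Hoxb13 had other proportions among the members than the remaining 12. Within its own group each of them had the highest Slc26a3, Aqp8, Car4 and Lypd8. Slc26a3 and Aqp8 were also highest together in extract low dose library 27 and vehicle library 5. Slc26a3 amounted to 30.3% of Car1 in cymopol high dose library 12, 54.8% in cymopol low dose library 34 and 42.2% in extract high dose library 23, and to at most 9.14% in the other 12 libraries. Aqp8 amounted to 40.9%, 43.3% and 48.7% of Car1 in the same 3 libraries, and to at most 13.9% in the others. Lypd8 was 313%, 365% and 290.1% of Car1 there, and at most 84.2% of it elsewhere. Cymopol high dose library 12 and extract high dose library 23 had the lowest Car1 of their groups, and in the cymopol low dose library 33 was lower. No vehicle library and no extract low dose library was among the 3.

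Other genes stood apart in the same 3 libraries. Hoxa13 was at 12.3, 15.4 and 23.5 FPKM in cymopol high dose library 12, cymopol low dose library 34 and extract high dose library 23, against at most 2.57 FPKM elsewhere, and Hoxd13 at 10.6, 3.601 and 4.29 FPKM, against at most 0.129 FPKM elsewhere. Atp12a, the colonic proton and potassium pump, was at 61.1, 72.5 and 50.7 FPKM in the same order, against at most 5.73 FPKM elsewhere, and the peptide hormone gene Insl5 at 29.3, 5.51 and 9.90 FPKM, against at most 1.05 FPKM. The acute-phase gene Saa1 was at 637, 350 and 924.2 FPKM, against at most 80.9 FPKM. Hoxa13, Hoxd13, Atp12a, Insl5 and Saa1 were singled out after their values were seen. Without the 3 libraries the difference of both high doses from vehicle was -0.21 for Slc26a3 and -0.27 for Car4, on the other side of 0 from the values with all libraries, and 3.93 for Guca2b (limma, adjusted p = 0.229). Without them it was 1.504 for Car1, 1.56 for Aqp8, 2.16 for Krt20 and 1.21 for Lypd8, all on the same side of 0 as with all libraries, and 0 members were called.

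**Figure D5:**
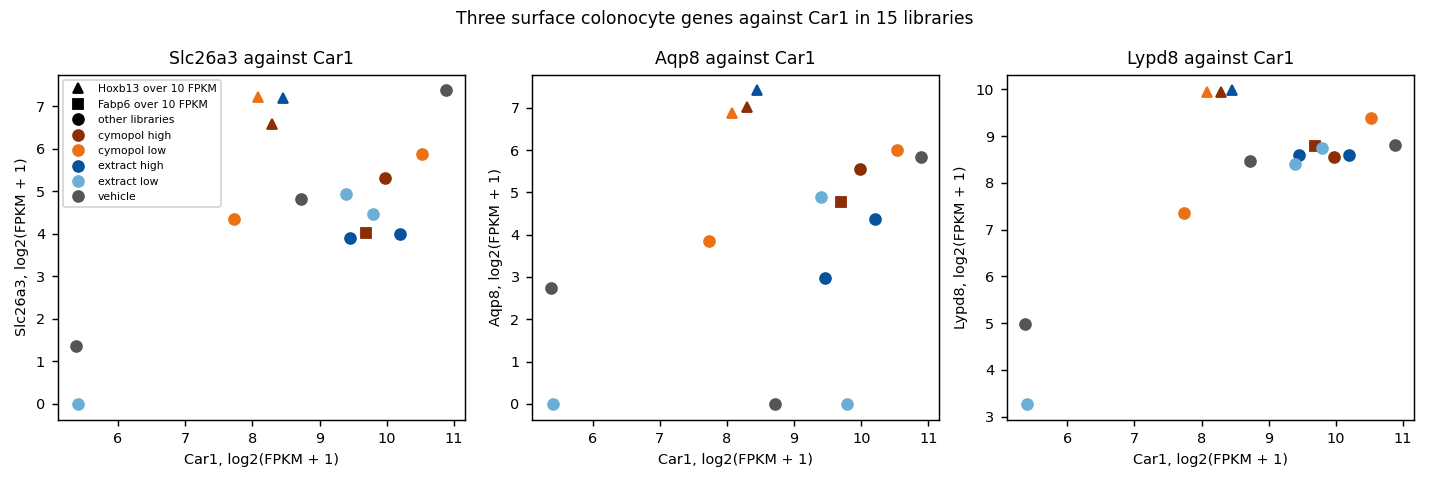
Slc26a3, Aqp8 and Lypd8 against Car1 in 15 libraries, all as log2(FPKM + 1), with the group in colour. The 3 libraries with Hoxb13 over 10 FPKM (triangles) lie together, high on each vertical axis at a middling Car1, and come from 3 treated groups.

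Genes that act with the members gave no calls. Of all 11430 tested genes, 15.9% were higher at an unadjusted p under 0.05 between both high doses and vehicle. In the guanylin pathway list, with 9 of 9 genes tested, limma called 0 in either direction in all 11 comparisons, and between both high doses and vehicle 1 of 9 was higher at an unadjusted p under 0.05, beside 15.9% of all tested genes. Of its most abundant genes, Slc9a3r1, a scaffold of apical transporters, averaged 47.9 FPKM over 15 libraries, the sodium and proton exchanger Slc9a3 17.8 FPKM and the guanylin receptor Gucy2c 11.5 FPKM. Gucy2c stood at 11.7, 13.9 and 20.9 FPKM in the cymopol high dose, at 10.3, 49.5 and 14.2 FPKM in extract high dose libraries, and at 0.853, 0 and 14.1 FPKM in vehicle. Both high dose groups overlapped vehicle library 5.

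Of the other carbonic anhydrases, 6 were tested and limma called 0 in all 11 comparisons, with 2 of 6 higher at an unadjusted p under 0.05 between both high doses and vehicle, beside 15.9% of all tested genes. Car2, the widespread cytosolic enzyme, stood at 56.0, 125 and 32.7 FPKM in the cymopol high dose, at 34.6, 144 and 39.0 FPKM in extract high dose libraries and at 1.84, 8.27 and 32.4 FPKM in vehicle. It was lowest in vehicle library 2 and highest in extract high dose library 23. Of 26 tested genes of other chloride, bicarbonate and sodium transport, 0 were called in all 11 comparisons and 4 were higher and 0 lower at an unadjusted p under 0.05 between both high doses and vehicle, beside 15.9% of all tested genes that were higher. Their median difference was 1.25 where all tested genes had 0.77. Atp1b1, a sodium pump subunit, was the most abundant of them, at 137 FPKM on average.

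Among other mature colonocyte genes, 26 were tested, 0 were called in all 11 comparisons, and 6 were higher and 0 lower at an unadjusted p under 0.05 between both high doses and vehicle, beside 15.9% of all tested genes that were higher. Their median difference was 1.86 where all tested genes had 0.77. The 4 tested aquaporins other than Aqp8, the 3 tested keratins other than Krt20 and the 13 tested transcription factors of colonocytes likewise had 0 limma calls in all 11 comparisons, and 0, 1 and 4 of them were higher at an unadjusted p under 0.05 between both high doses and vehicle. Of other keratins Krt8 was the most abundant, at 178 FPKM on average, and of the transcription factors Klf4, at 67.5 FPKM. The 8 epithelial genes tested had a median difference of 1.98 between both high doses and vehicle, beside 1.65 for the 7 members. The 7 goblet cell genes tested had a median difference of 1.98 in the same comparison, and the 8 smooth muscle genes 1.06; their part in the members' values was not tested.

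Markers of the gut wall were found in the libraries: the smooth muscle gene Acta2 was at 58.2 FPKM or above in every library but vehicle 2 and extract low dose 26, and the mucin Muc2 was listed above 0 in the 14 libraries that gave it a value. For the 11 genes of the small intestinal list, the summed level was 1592 FPKM in cymopol high dose library 14 and at most 49.8 FPKM in the other 14 libraries. The summed B and plasma cell level was 537 FPKM in vehicle library 4 and at most 73.5 FPKM elsewhere, and the part of these cells in the vehicle group's values was not tested. The sum of 5 pancreatic acinar genes was at most 28.2 FPKM, with Prss2 listed at 0 in 14 libraries.

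The 5 tested genes outside the 8 whose levels were most like the mean of the 7 members over 15 libraries were Arf5 (Pearson r 0.97), Atp11b (0.97), BC005537 (0.96), Rab11fip1 (0.96) and Eif6 (0.95). The median r of all tested genes with that mean was 0.45. The points share library and depth.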

How the data were processed

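RNA of 15 large intestine libraries was depleted of ribosomal RNA, starting with 90 ng, per the labels' protocols. STAR 2.4.0j and the build GRCm38.p4 are named in the submitters' processing notes; the other steps were not given in the sources used here. The authors deposited FPKM with an interval for each locus, per the file headers, and no counts. Some loci are annotated genes and some were assembled separately in each library. An assembled locus was given to a GENCODE M21 gene without a row of its own in that library where shared over joint span was at least 0.5 and the 2 matched each other best. Car1, Car4 and Slc26a3 have values only in this way. Rows that repeat an identifier were summed. Fragments were estimated from the width of each interval, which covers counting error only and is too low for loci with several transcripts.

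Values were analysed as log2(FPKM + 1) with limma 3.58.1 in R 4.3.3 (1 mean per group over 15 libraries, variance trend), for genes measured in all libraries with at least 1 FPKM in at least 3. The p-values were adjusted by Benjamini and Hochberg over all 11430 genes, and the fit was tested on simulated data. A fold on this scale understates the change of low genes. Both high doses were also set against both low doses by exact permutation, two-sided. Tables were joined with pandas 2.3.3 in Python 3.11.15. Members and gene lists were chosen with earlier results of these data known. All 8 members are named, and from the other lists genes among the 4 with the highest mean FPKM, apart from those said to be singled out after their values were seen. Alternatives changed the pseudocount, the filter, the scaling, the weights, the matching of loci or the libraries. RefSeq promoters were matched by symbol for 7 of 8 members.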

Additional observations from a re-analysis of the deposited data

Results flagged for a closer look

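Some assembled loci lie wholly within introns and hold no exonic base, and they are not part of the gene values. Within Slc26a3 they held an estimated 497 fragments per 1000000 in extract high dose library 23, against at most 79.1 in the vehicle libraries, and 6 treated libraries exceeded that vehicle level. Within Krt20 they held 100.0 per 1000000 in cymopol high dose library 14, against 0 in the vehicle libraries, with 3 treated libraries above. Within Lypd8 they held 177 per 1000000 in extract low dose library 29, against at most 161 in vehicle, with 1 treated library above. Car1 and Car4 went the other way. Within Car1 such loci held 211 per 1000000 in vehicle library 4, against at most 93.2 in the treated libraries. Within Car4 they held 194 in vehicle library 4, against at most 175 in the treated libraries. The share of all genes with such a pattern is not given, and the source of these fragments was not tested.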

How the results depend on the processing

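Of 213 counts of called members under the alternatives, 212 were 0 as with all settings unchanged; the exception was a pseudocount of 0.1, which called 1 member, Guca2b, between both high doses and vehicle. With only the rows that carry an Ensembl identifier no member could be tested, so that alternative gives no value. Between both high doses and vehicle the sign changed for Car1 (-0.15), Car4 (-0.73) and Slc26a3 (-0.33) after median-of-ratios scaling, and for Car4 (-0.11) and Slc26a3 (-0.47) with array weights. It changed for Car1 (-0.46) and Slc26a3 (-0.93) without the 2 libraries of size factor under 0.2, for Car4 (-0.27) and Slc26a3 (-0.21) without the 3 libraries with Hoxb13, and for Car4 (-0.28) without these and the library with Fabp6. These left-out sets, and an overlap of 0.4 between locus and gene, were chosen after seeing the data. Between both high doses and both low doses it changed for Car1 (-0.35), Car4 (-0.59) and Krt20 (-0.29) after median-of-ratios scaling, for Car4 after quantile normalization (-0.25), for Car4 (-0.23) and Slc26a3 (-0.26) with array weights, and for Car4 (-0.30) and Slc26a3 (-0.089) both without the 3 libraries over 20% intergenic fragments and without the 2 of low size factor. Leaving out 1 library at a time gave -0.46 to 2.30 for Car1, -0.17 to 0.88 for Car4 and -0.93 to 2.08 for Slc26a3 against vehicle, and -0.30 to 1.14 for Car4 and -0.089 to 1.15 for Slc26a3 against both low doses, with 0 members called each time. The cause of these changes was not tested. No paired analysis was possible because the groups share no replicate numbers. Depth limits Guca2b most, at an estimated 25.5 fragments or fewer in all libraries but 1. It also limits single values of other members. Car4 rested on 5.66 in vehicle library 5, 3.31 in extract low dose library 26 and 1.79 in cymopol low dose library 33. Slc26a3 rested on 2.17 in vehicle library 2.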
